A study of Mus musculus with 24 samples.

Results

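The gene for the transcription factor p53 (Trp53), its inhibitors and its target genes were followed across 24 single mouse embryos. The 32 genes were named by symbol: Trp53, the negative regulators Mdm2 and Mdm4, and 29 genes known as p53 targets, of 37229 gene symbols in the count table. Of these, 31 passed the filter on low counts that left 15875 genes for testing, and Fas did not. All embryos were ICR embryos made by in vitro fertilization. Split embryos were grown from 1 blastomere of a late 2-cell embryo that had been placed in biopsy medium, parted by micromanipulation and cultured alone in a modified sodium hyaluronate gel. Control embryos were left whole and cultured in parallel. The groups were 6 split morulae (3 sister pairs), 5 control morulae, 6 split blastocysts (3 sister pairs), 3 control blastocysts and 4 control 8-cell embryos. The labels stated the gel for split embryos alone, so separation, biopsy medium and gel cannot be told apart. They gave no batch, litter or sex.

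p53 is a transcription factor that is kept at a low level by the ubiquitin ligase Mdm2 and its relative Mdm4, and it accumulates after DNA damage and other stress. It then activates genes that stop the cell cycle, repair DNA or start apoptosis, and also Mdm2 itself, which closes a negative feedback loop. Much of this control acts on the protein, which was not measured here. A transcript level in a whole embryo also cannot tell fewer cells of a type from less RNA per cell.

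Libraries were made from whole embryos with Smart-seq2, which copies polyadenylated RNA from an oligo(dT) primer. The total counts were 14.1 to 18.9 M reads (M for mega) in split morulae, 13.9 to 19 M in control morulae, 13.4 to 25.2 M in split blastocysts, 11.3 to 12.7 M in control blastocysts and 26.3 to 38.5 M in 8-cell embryos. Levels are CPM, that is read counts of a gene relative to its library's total, with that total corrected by TMM scaling. For tests, the counts of both sisters of a pair were summed, so that a pair or a whole control embryo counted as 1 unit. A difference was called where edgeR's quasi-likelihood test gave an adjusted p (Benjamini-Hochberg, over all 15875 genes) under 0.05. Mitochondrially encoded transcripts made up 1.81 to 3.19% of counts in split morulae against 2.7 to 5.06% in control morulae, and 0.841 to 2.34% in split blastocysts against 3.47 to 4.85% in control blastocysts. Between 9937 and 11386 tested genes were detected in split morulae, against 11956 to 12587 in control morulae. The part of these differences in the results was not tested.

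Both sisters of split morula pair 3 stood apart from the other split morulae in several stage markers. The homeobox gene Obox6 was at 2210 CPM in blastomere 1 and 1860 CPM in blastomere 2 of that pair, against 340 to 507 CPM in the other split morulae, 453 to 866 CPM in control morulae and 1700 to 2800 CPM in 8-cell embryos. Gata3, a trophectoderm transcription factor, was at 194 and 22.4 CPM in these sisters and at 293 to 549 CPM in the other split morulae. Control morulae had 140 to 273 CPM of Gata3 and 8-cell embryos 1.84 to 11.3 CPM, so that blastomere 1 lay inside the control morula range and blastomere 2 between the stages. Cdx2, another trophectoderm factor, had no count in either sister. It was at 14.7 to 29.3 CPM in the other split morulae, 0.0652 to 3.65 CPM in control morulae and 0 to 2.08 CPM in 8-cell embryos. Dppa3, another stage marker, was at 14200 and 6810 CPM in these sisters and at 6810 to 8850 CPM in the other split morulae. Control morulae had 10300 to 12700 CPM of Dppa3 and 8-cell embryos 19500 to 30600 CPM. The epiblast gene Nanog was at 11.5 and 33.1 CPM in the sisters, inside the 8-cell range of 8.8 to 89.3 CPM. Other markers of the lists lay below the 8-cell range in all split morulae, these sisters included. Gata4 had no count against 22.2 to 40.5 CPM, Klf4 was at 14 to 65.5 CPM against 69 to 217 CPM, and Esrrb at 0 to 17.8 CPM against 27.8 to 45.9 CPM. Over all tested genes, the sisters correlated at r = 0.834 and 0.827 with mean control morulae. With mean 8-cell embryos r was 0.814 and 0.803. In the other split morulae these values were 0.878 to 0.894 and 0.785 to 0.798. Results on members in split morulae are therefore also given without pair 3 or its blastomere 2.

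In intact embryos, Trp53 transcripts were scarce at the 8-cell stage and more abundant in every morula. Trp53 was at 64.6, 42.2, 54.9, 65.9 and 50.1 CPM in the 5 control morulae, against 14.8, 4.62, 10.2 and 1.52 CPM in the 4 control 8-cell embryos. The groups did not overlap, and the gene rose by log2 2.84 ± 0.47 (adjusted p = 0.000103). Mdm4, which binds p53 and blocks its activation of targets, moved the other way. Its values were 44.6, 53.7, 62.7, 27.7 and 37.1 CPM in control morulae against 133, 234, 195 and 114 CPM in 8-cell embryos, without overlap (log2 -1.90 ± 0.29, adjusted p = 4.16e-05). Mdm2 ranged from 19.1 to 74.3 CPM in control morulae and from 30.1 to 47.7 CPM in 8-cell embryos, and it was not called (log2 0.06 ± 0.40, adjusted p = 0.952).

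Among the targets, 4 rose and 1 fell in the same comparison. With Trp53 and Mdm4, 5 of the 31 tested members were higher and 2 lower in control morulae, which is 22.6% of them, against 24.9% of all tested genes (14.3% higher and 10.7% lower). The share was thus near that of all genes. Btg2, an antiproliferative gene, was at 15.5, 6.76, 8.69, 7.72 and 12.9 CPM in control morulae, against 0, 1.55, 1.33 and 0.0337 CPM in 8-cell embryos (log2 3.83 ± 1.12, adjusted p = 0.0171). Every morula lay above every 8-cell embryo. Ei24, an endoplasmic reticulum protein gene linked to autophagy, was at 27.0, 11.2, 23.7, 21.0 and 44.5 CPM in control morulae, against 97.2, 59.8, 80.7 and 85.6 CPM in 8-cell embryos (log2 -1.67 ± 0.35, adjusted p = 0.00121). It too had no overlap between the stages.

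The other 3 called targets were near zero at the 8-cell stage or overlapped between stages. Fdxr, a mitochondrial reductase, had 240 counts over the control morulae and 2 counts over the 8-cell embryos. The ratio of pooled CPM was 169, with a 95% interval of 46.9 to 1400 from counting error of those 2 counts alone (adjusted p = 0.00559). Gadd45a, a growth arrest gene, had 55 counts in control morulae and none in 8-cell embryos, which made it at least 25.9-fold higher against a floor of 3 counts over the group (adjusted p = 0.0323). One of the control morulae also had no count of it. Cdkn1a encodes p21, the inhibitor of cyclin-dependent kinases through which p53 halts the cell cycle. It was at 128, 58.6, 83.2, 146 and 37.5 CPM in control morulae, against 42.7, 51.0, 33.7 and 16.6 CPM in 8-cell embryos, with 1 morula inside the 8-cell range (log2 1.33 ± 0.45, adjusted p = 0.0355).

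The calls of Cdkn1a and Gadd45a were lost when certain single embryos were left out. Without 8-cell embryo 1, 3 or 4, Cdkn1a had an adjusted p of 0.0525, 0.0796 or 0.0973, and without control morula 1 or 4 it had 0.0766 or 0.0866. For Gadd45a the adjusted p was 0.0618, 0.0615, 0.0634 and 0.062 without 8-cell embryos 1 to 4, and 0.062 without control morula 1. The fitted change of Btg2 was log2 4.53 without 8-cell embryo 2, and both counts of Fdxr came from 8-cell embryo 1.

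From morula to blastocyst in intact embryos, Cdkn1a was the only member called, 3.23% of the 31 against 10.6% of all tested genes (3.12% higher and 7.46% lower). Its values were 18.7, 17.5 and 23.3 CPM in control blastocysts, against 128, 58.6, 83.2, 146 and 37.5 CPM in control morulae. The groups did not overlap and the gene fell by 2.19 ± 0.52 on the log2 scale (adjusted p = 0.00749, with 0.0516 or 0.0525 without control blastocyst 1 or 2). Trp53 was at 37.2, 29.6 and 45.8 CPM in control blastocysts against 42.2 to 65.9 CPM in control morulae, and it was not called (log2 -0.57 ± 0.47, adjusted p = 0.51).

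On the length-corrected scale of the deposited table, TPM, the order of the members within a stage also differed. At the 8-cell stage the highest mean was that of Ei24 (36.0 ± 7.29 TPM, SD, n = 4), followed by Mdm4 (24.6 ± 7.49 TPM). Cdkn1a (57.7 ± 29.3 TPM) and the cyclin G1 gene Ccng1 (38.7 ± 19.9 TPM) led in control morulae (n = 5). In control blastocysts (n = 3) Ccng1 (51.7 ± 20.3 TPM) and Trp53 (29.1 ± 7.98 TPM) came first. The ranges of the first and the second gene overlapped at each of these stages.

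**Figure D1:**
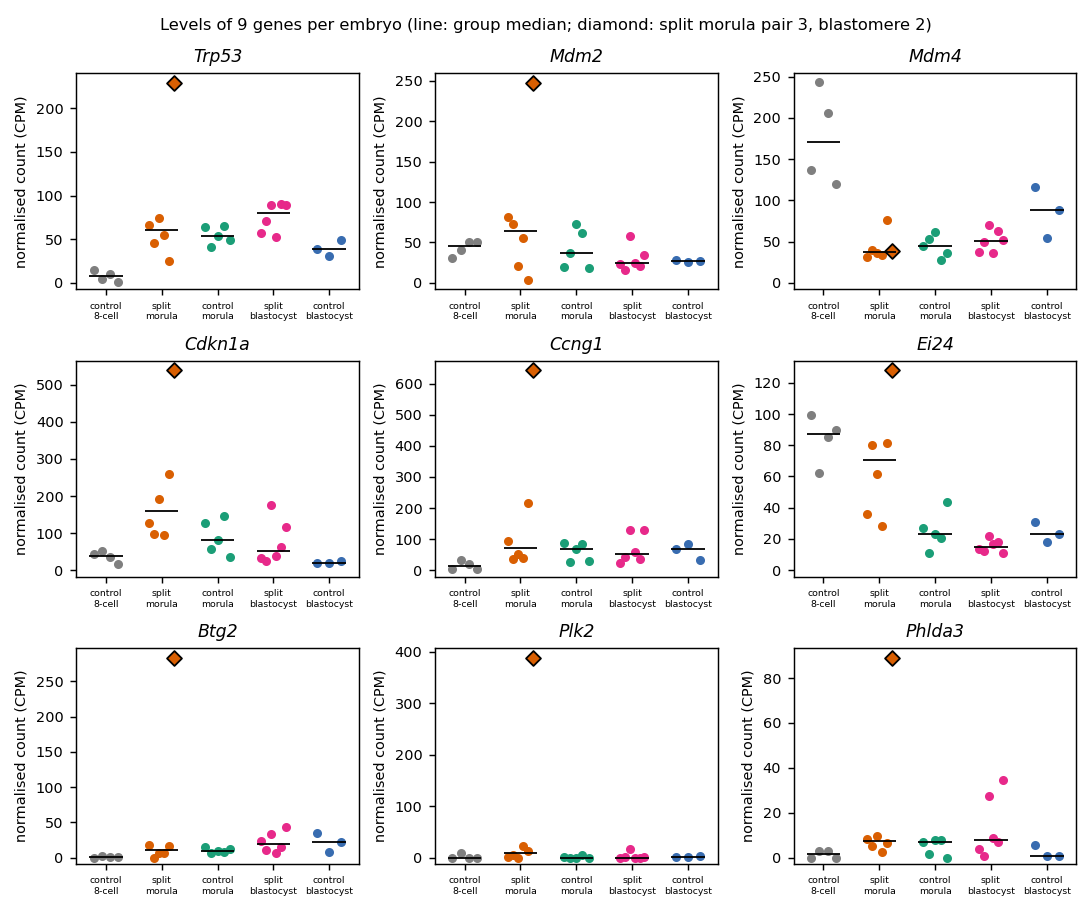
Levels of 9 of the genes in each of the 24 embryos. The vertical axis is the normalised count (CPM), each point is 1 embryo and the line is the group median; the diamond is blastomere 2 of split morula pair 3, at 229 CPM for Trp53 and 539 CPM for Cdkn1a. Trp53 lies low and Mdm4 high at the 8-cell stage.

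A single split morula, blastomere 2 of pair 3, carried most of the high values of these genes in the series. It had the highest CPM of all 24 embryos for 21 of the 32 members (65.6%). The same embryo was highest for 7.79% of all tested genes. The summed level of the 32 genes was 3480 CPM in this embryo and 1050 CPM in its sister, against 516 to 699 CPM in the other split morulae and 337 to 663 CPM in control morulae. Split blastocysts had 334 to 867 CPM, control blastocysts 372 to 503 CPM and 8-cell embryos 403 to 625 CPM.

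The feedback regulator and cell cycle genes were among the highest. Trp53 itself was at 229 CPM in this embryo and 24.9 CPM in its sister, with 90.9 CPM the next highest value among all embryos. Mdm2 was at 247 CPM against 3.54 CPM in the sister and 81.2 CPM in the next highest embryo. Cdkn1a was at 539 CPM, and its sister followed with 260 CPM as the second highest of all. Ccng1, which recruits a phosphatase to Mdm2, was at 643 CPM and again at 218 CPM in the sister. The kinase gene Plk2 was at 389 CPM, where no other embryo exceeded 21.6 CPM, and Btg2 was at 283 CPM, where no other exceeded 42.9 CPM. On the TPM scale, Ccng1 reached 512 TPM and Cdkn1a 425 TPM in this embryo, and Trp53 158 TPM.

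Genes of apoptosis and DNA repair also had their maximum there. Aen, an apoptosis-enhancing nuclease, was at 237 CPM, against 68.4 CPM in the next embryo. The death receptor gene Fas had 206 counts (12 CPM) in this embryo and no count in any other, where a count of 0 allows up to 3 counts per library. Phlda3, an inhibitor of Akt, was at 89.0 CPM with 34.4 CPM next, and Tnfrsf10b, another death receptor, at 64.7 CPM with 43.4 CPM next. The BH3-only gene Pmaip1 (Noxa) was at 79.4 CPM with 64 CPM next, while Bbc3 (Puma) was at only 4.18 CPM with 3.21 CPM next. Polk, a translesion polymerase, was at 65.5 CPM with 13.7 CPM next. The damage recognition genes Ddb2 and Xpc were at 26.3 and 16.7 CPM, with 13.7 and 12.1 CPM next. Trp53inp1, Ei24, Sesn2, Pidd1, Ppm1d and Zmat3 were the remaining genes with their maximum there.

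The other 11 members did not have their maximum in this embryo. Mdm4 was at 38.9 CPM there, inside the control morula range. Sesn1, a sestrin of the stress response, was at 0.0581 CPM in this embryo and had no count in its sister. Gadd45a, Gadd45g and Fdxr had no count in it, and Gadd45b was at 0.814 CPM. The genes Gdf15, Rrm2b, Eda2r, Plk3 and Ddit4 lay between 1.05 and 37.0 CPM.

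**Figure D2:**
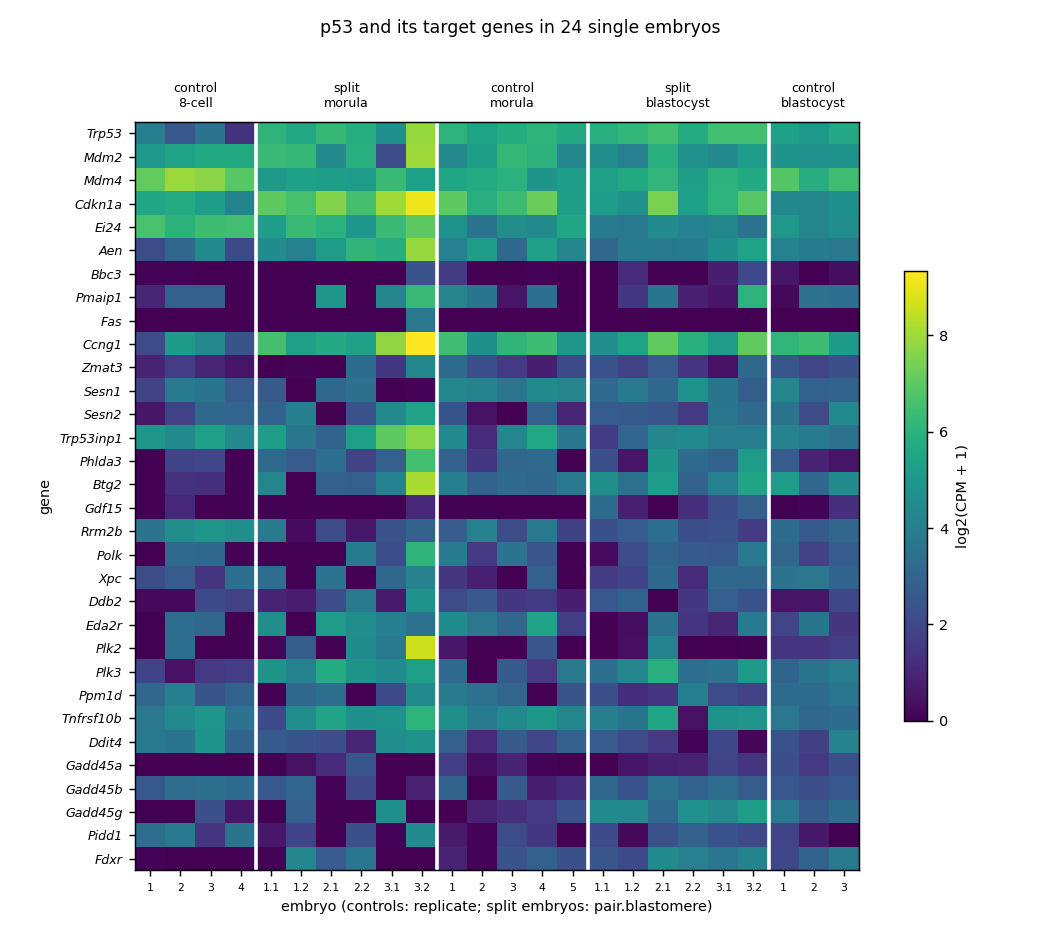
All 32 genes (rows) in the 24 embryos (columns, grouped by stage and origin; split embryos are numbered pair.blastomere), coloured by log2(CPM + 1). The column of blastomere 2 of split morula pair 3 holds the maximum of 21 rows, among them Fas, which is at 0 in every other embryo.

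The promoters of the members were searched for the p53 half-site, the palindromic motif of 10 bases that occurs in pairs in p53 response elements. RefSeq promoters on GRCm38.p6, from 250 bases before to 50 bases after a start site, existed for 25 of the 32 members (33 promoters). This build differs from that of the counts, GRCm39. At least 1 half-site stood in 11 of the 33 promoters (33.3%), against 8.36% of all 32851 mouse promoters in the table and 7 of 41 promoters of the other p53 targets (17.1%). The pair of Aen promoters overlap and hold the same half-site, which was counted in both. Its palindromic form makes both strands give the same matches. A full site, meaning 2 half-sites at most 13 bases apart, stood in 1 member promoter (Cdkn1a, 3.03%), against 0.0731% of all promoters. The 250 bases before the start are shown for Cdkn1a (chr17:29090729-29090978, plus strand), Ccng1 (chr11:40755287-40755536, minus strand) and Mdm2 (chr10:117710759-117711008, minus strand), since these genes were among the highest in the embryo above. Capitals mark the half-sites, which begin 73 and 51 bases before the start in Cdkn1a, 185 before it in Ccng1 and 186 before it in Mdm2. The full site counted in Cdkn1a is the pair of capital stretches. The 10 bases that directly follow its second stretch differ from the motif at 1 base, so they were neither counted nor marked.
Cdkn1a: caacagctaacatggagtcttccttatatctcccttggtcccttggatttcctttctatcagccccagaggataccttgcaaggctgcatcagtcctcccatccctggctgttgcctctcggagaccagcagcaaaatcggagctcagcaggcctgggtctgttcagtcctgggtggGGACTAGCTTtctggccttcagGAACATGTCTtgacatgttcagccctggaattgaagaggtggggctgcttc
Ccng1: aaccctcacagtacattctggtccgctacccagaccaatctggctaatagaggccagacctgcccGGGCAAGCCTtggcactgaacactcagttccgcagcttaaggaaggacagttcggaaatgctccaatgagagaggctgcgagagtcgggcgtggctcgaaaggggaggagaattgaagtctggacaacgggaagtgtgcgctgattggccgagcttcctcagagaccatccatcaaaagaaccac
Mdm2: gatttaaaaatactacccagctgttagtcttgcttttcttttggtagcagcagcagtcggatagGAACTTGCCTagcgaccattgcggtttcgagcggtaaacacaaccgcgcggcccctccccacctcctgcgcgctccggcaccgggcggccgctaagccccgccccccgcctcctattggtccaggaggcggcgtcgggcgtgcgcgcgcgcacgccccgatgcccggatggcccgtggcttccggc
The Cdkn1a window belongs to the more distal of its start sites, and the promoter of the other one held no half-site. Btg2, Plk2 and Phlda3, also high in the embryo, had no match in these windows. A match describes letters and shows no binding.

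Members above every control morula were also counted in each split morula. The 21 members with their maximum in blastomere 2 of pair 3 lie above every control morula by definition. The count for that embryo thus largely restates its maxima and is no separate result. In blastomere 2 of pair 3, 24 of the 32 members (75%) lay above every control morula, against 25.9% of all tested genes. In its sister the count was 14 (43.8%, against 20.6% of all genes). In the other 4 split morulae it was 7 to 9 (21.9 to 28.1%), where all tested genes had 18.5 to 20.1%, so the members there were near the background. Fixed lists of p53 regulators (28 tested) and of other p53 targets (29 tested) allowed the same count. In blastomere 2 of pair 3, 15 of the other targets (51.7%) and 9 of the regulators (32.1%) lay above every control morula. More of the regulators, 12 (42.9%), lay below every control morula there, against 21.6% of all tested genes, and 9 regulators were also above the controls in its sister and in blastomere 2 of pair 1. Of the 32 members, 2 (6.25%) lay below every control morula in blastomere 2 of pair 3, and 3 to 6 (9.38 to 18.8%) did in the other 5 split morulae, where all tested genes had 17.4 to 24.1%.

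**Figure D3:**
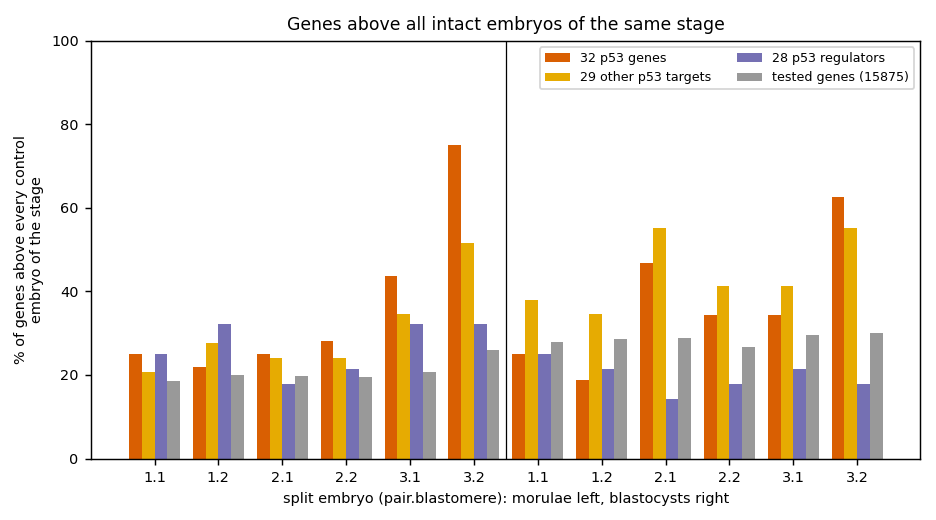
Percentage of genes whose CPM in a split embryo exceeded that of every control embryo of the same stage, for the 32 p53 genes, 29 other p53 targets, 28 p53 regulators and 15875 tested genes. The bar of the 32 genes reaches 75% in blastomere 2 of morula pair 3 and 62.5% in blastomere 2 of blastocyst pair 3; the grey bars give the share of all tested genes.

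Other transcripts also set this embryo apart. The 6 blood markers summed to 116 CPM in it, against 2.11 to 20.3 CPM in the other split morulae, and the 11 cumulus and granulosa markers to 56.5 CPM, against 2.05 to 24.3 CPM. Each sum rested on 1 or 2 genes. The haemoglobin gene Hba-a1, which has a near-identical copy in the genome, was at 103 CPM in the embryo and at 2.11 to 15.3 CPM in the other split morulae, and Cd68, a macrophage gene, was at 13.3 CPM against 0 to 8.31 CPM. Cd68 also reached 15.9 CPM in control morulae and was at 10.4 to 49.5 CPM in split blastocysts, so its level was not particular to the embryo. The granulosa sum was Amhr2 alone, at 56.5 CPM against 0 to 16.2 CPM. The other 4 blood and 10 granulosa markers had no count in the embryo. The leucocyte and macrophage genes Ptprc, Csf1r and Lyz2 and the granulosa genes Foxl2, Fshr and Inha had no count in any embryo. Its mitochondrial share of 1.81% was the lowest of the split morulae, and its total of 16 M counts lay within their range. The part of these values in the p53 levels was not tested.

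When pairs were compared with control morulae, no member was called in split morulae, against 0.126% of all tested genes (20 genes, with 0.0693% higher and 0.0567% lower). At an unadjusted p under 0.05, edgeR had 10 members higher and 1 lower, and 15% of all tested genes passed that limit. The median log2 change of the 31 tested members was 1.29, also with Gdf15 (no count in control morulae) at its bound, and 26 were above 0, while the median of all tested genes was 0. Without blastomere 2 of pair 3 the median was 0.36, with 20 members above 0 and 5 at an unadjusted p under 0.05. Without the whole pair it was 0.28, with 18 above 0 and 2 at that limit. The share of all tested genes at that limit was not counted in these fits. Again no member was called in either case, against 0.0773% of all tested genes without blastomere 2 and 0.0409% without the pair.

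For several genes the difference rested on pair 3. Ccng1 was at 69.5, 45.7 and 433 CPM in split morula pairs 1 to 3, against 88.9, 25.4, 68.2, 86.3 and 30.2 CPM in control morulae. Pairs 1 and 2 lay inside the control range, and the log2 change was 1.61 ± 0.76 with all pairs (adjusted p = 0.331) and -0.05 without pair 3. Btg2 was at 10.2, 6.31 and 151 CPM in the pairs, against 6.76 to 15.5 CPM in control morulae (log2 2.44 ± 1.02, adjusted p = 0.296, and -0.32 without pair 3). Trp53inp1, a stress-induced nuclear protein gene, was at 25.7, 22.6 and 167 CPM, against 1.19 to 47.7 CPM (log2 1.85 ± 0.74, adjusted p = 0.277, and 0.28 without pair 3). Again only pair 3 lay outside the controls. Plk2 rested on pair 3 in part only, since pair 2 also lay above every control morula. Its values were 2.7, 10.7 and 203 CPM, against 0 to 4.58 CPM. The change was log2 6.13 ± 2.45 with pair 3 (adjusted p = 0.289) and 2.71 without it.

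For Cdkn1a and Aen, pair 2 also lay at or above the top of the control range. Cdkn1a was at 116, 146 and 402 CPM in split morula pairs, against 37.5 to 146 CPM in control morulae (log2 1.29 ± 0.46, adjusted p = 0.244, and 0.53 without pair 3). Aen was at 19.7, 51.9 and 148 CPM, against 8.0 to 38.1 CPM (log2 1.65 ± 0.65, adjusted p = 0.272, and 0.62 without pair 3). Pair 1 lay among the controls for both genes. Trp53 and Mdm2 themselves changed sign with blastomere 2 of pair 3, at log2 0.60 ± 0.45 and 0.93 ± 0.43 with it, and -0.16 ± 0.48 and -0.09 ± 0.60 without it. Without the whole of pair 3 both stayed above 0, at log2 0.16 for Trp53 and 0.46 for Mdm2, and neither was called in any of these fits.

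In contrast to these, Ei24, the polo-like kinase gene Plk3 and Sesn1 did not overlap between the split pairs and the control morulae. The share of all tested genes without overlap between these groups was not counted, so this separation has no background. Ei24 was at 56.7, 46.0 and 106 CPM in the split pairs, against 27.0, 11.2, 23.7, 21.0 and 44.5 CPM in control morulae (log2 1.45 ± 0.37, adjusted p = 0.113, 1.27 without blastomere 2 of pair 3 and 1.01 without the pair). Pair 3 lay above and pairs 1 and 2 lay below the 59.8 to 97.2 CPM of 8-cell embryos. Plk3 was at 22.6, 40.6 and 29.5 CPM, against 8.1, 0, 5.23, 1.9 and 12.4 CPM (log2 2.48 ± 0.92, adjusted p = 0.253, and 2.35 without that embryo). Sesn1 was lower in all split pairs, at 2.79, 8.84 and 0.0294 CPM against 19.2, 17.6, 11.8, 21.0 and 18.4 CPM (log2 -2.17 ± 0.99, adjusted p = 0.317, also -2.17 without that embryo and -1.59 without pair 3). None of the 3 genes passed the test in edgeR, although Ei24 was called by DESeq2 (adjusted p = 0.0054) and when each split embryo counted as its own sample (adjusted p = 0.0474). Sesn1 was called by limma-voom (adjusted p = 0.0329).

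**Figure D4:**
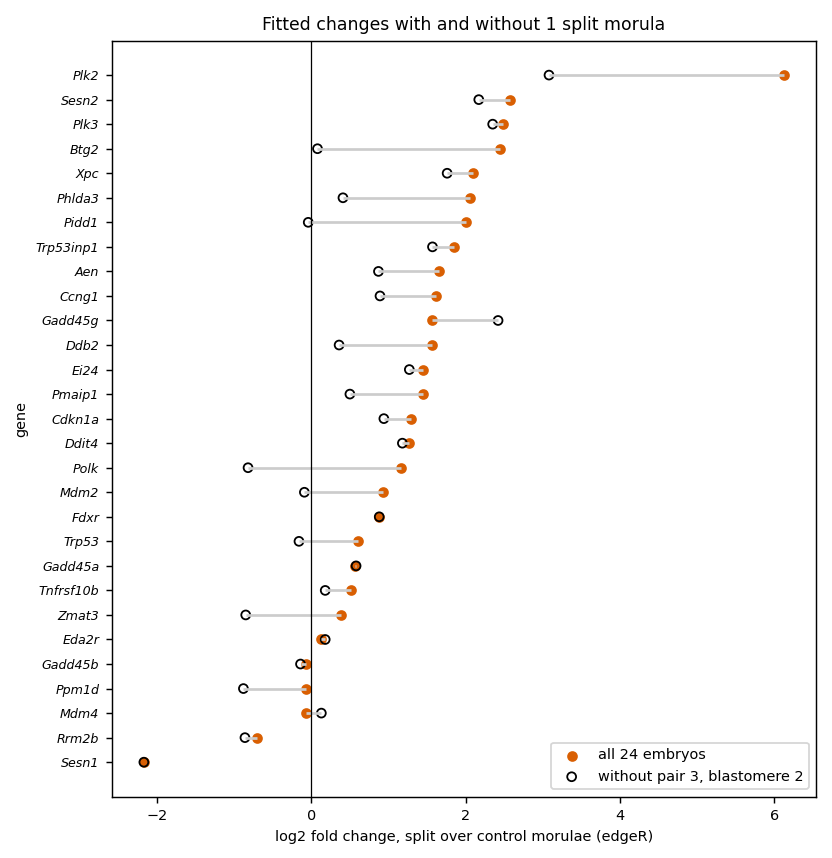
Log2 fold changes of split over control morulae with all embryos (filled) and without blastomere 2 of pair 3 (open) for the tested members other than Gdf15 and Bbc3, which had no count in 1 of the groups in one of the fits. Btg2 moves to 0.08 and Mdm2 to -0.09, while Plk3, Ei24 and Sesn1 stay near their values.

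At the blastocyst stage no member was called between split and control embryos, against 4.74% of all tested genes (3.42% higher and 1.32% lower). The median log2 change of the 31 members was 0.27, with 21 above 0, and the median of all tested genes was 0. In edgeR, 1 member had an unadjusted p under 0.05, while 15.2% of all tested genes passed that limit. That member was Cdkn1a, at 29.9, 97.8 and 93.9 CPM in split blastocyst pairs against 18.7, 17.5 and 23.3 CPM in control blastocysts. The groups did not overlap, and the log2 change was 1.90 ± 0.55 (adjusted p = 0.0512). It was called without split pair 1 (log2 2.28, adjusted p = 0.0211), by DESeq2 (adjusted p = 0.02) and when only these groups were fitted (adjusted p = 0.0142). Over all 15 alternatives the adjusted p ran from 0.0142 to 0.557.

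Trp53 and Tnfrsf10b also lay above the controls in every split pair. Trp53 was at 65.2, 67.7 and 89.7 CPM in split blastocyst pairs, against 37.2, 29.6 and 45.8 CPM in control blastocysts (log2 0.98 ± 0.52, adjusted p = 0.387). Tnfrsf10b was at 13.3, 19.2 and 27.3 CPM, against 11.3, 7.35 and 8.24 CPM (log2 1.15 ± 0.56, adjusted p = 0.334). Plk3 was at 14.1, 30.9 and 22.3 CPM, against 6.78, 11.1 and 13.7 CPM, again without overlap (log2 1.09 ± 1.05, adjusted p = 0.774). Gadd45g and Gadd45b did not overlap either. Gadd45g was at 17.5 to 28.8 CPM in split pairs against 4.99 to 11.8 CPM (log2 1.42 ± 1.80, adjusted p = 0.874). Gadd45b was at 5.95 to 8.03 CPM against 3.44 to 4.54 CPM (log2 0.76 ± 1.35, adjusted p = 0.933). The share of all tested genes without overlap at this stage was not counted, so these separations have no background. Mdm4 had 44.3, 50.2 and 56.3 CPM in split pairs against 111, 52.6 and 82.7 CPM in controls, with overlap (log2 -0.71 ± 0.35, adjusted p = 0.347). The 7 trophectoderm markers summed to 4210 to 6340 CPM in split blastocysts, against 1840 to 2910 CPM in control blastocysts. The keratin genes Krt8 (1320 to 2060 CPM against 490 to 863 CPM) and Krt18 (1890 to 3390 CPM against 612 to 1240 CPM) carried this difference. The other 5 markers overlapped between the groups, with Gata3 at 616 to 1090 CPM against 629 to 1110 CPM, and none of the 7 was called (median log2 change 0.09). Of the 3 morula markers, 2 were called higher in split blastocysts (median log2 change 2.21). Trim43b was at 2.85 to 56.5 CPM against 0.561 to 2.43 CPM, Obox6 at 0 to 22.3 CPM against 0 to 4.7 CPM. Dppa3 was at 3710 to 6670 CPM against 2930 to 4010 CPM. Of the 6 epiblast markers, 1 was called higher and 0 lower, and Sox2 was at 3.54 to 21 CPM against 24.1 to 45.7 CPM. The part of these trophectoderm, morula and epiblast markers in the p53 levels was not tested.

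Single split blastocysts differed as well. Blastomere 2 of pair 3 had 20 of the 32 members above every control blastocyst (62.5%, against 30.1% of all tested genes) and blastomere 1 of pair 2 had 15 (46.9%, against 28.9%). The other 4 had 6 to 11 (18.8 to 34.4%, against 26.6 to 29.5%). Members below every control blastocyst numbered 14 (43.8%, against 28.5% of all tested genes) in blastomere 1 of pair 1 and 13 (40.6%, against 31.4%) in blastomere 2 of pair 2. The other 4 split blastocysts had 4 to 10 below (12.5 to 31.2%, against 27 to 31.1%). Of the 28 regulators, 13 to 17 (46.4 to 60.7%) lay below and 4 to 7 (14.3 to 25%) above every control blastocyst in each split blastocyst. Of the 29 other p53 targets, 10 to 16 (34.5 to 55.2%) lay above and 4 to 6 (13.8 to 20.7%) below. For all tested genes these shares were 26.6 to 30.1% above and 27 to 31.4% below. In the embryo of pair 2, Cdkn1a was at 176 CPM, Plk3 at 58.3 CPM and Ccng1 at 131 CPM, and its sister had 37.6, 9.66 and 59.6 CPM. In the embryo of pair 3, Pmaip1 was at 64 CPM, Phlda3 at 34.4 CPM and Ccng1 at 130 CPM, and its sister had 0.468, 6.88 and 34.6 CPM. The summed level of the 32 genes was 867 CPM in the first of these and 828 CPM in the second, against 334 to 496 CPM in the other split blastocysts.

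Differences between sisters were uneven across the pairs. The log2 ratio of blastomere 2 over blastomere 1 was taken on CPM + 1. In morula pair 3 its median over the 32 genes was 1.14, with 19 genes more than 2-fold higher in blastomere 2 and 1 (Gadd45g, at 24.5 CPM in blastomere 1 and no count in blastomere 2) in blastomere 1. Of all tested genes, 24.2% were as much higher in blastomere 2 and 14.2% in blastomere 1. In blastocyst pair 2 the median was -0.85, with 14 genes higher in blastomere 1 and 5 in blastomere 2, against 17.4% and 14.5% of all genes. The medians of the other 4 pairs lay between 0 and 0.11. Morula pair 2 differed in both directions, with 10 genes higher in blastomere 2 and 8 in blastomere 1, against 16.6% and 14.9%. Its median absolute log2 ratio was 1.19, against 0.42 for all tested genes. That value was 1.4 (against 0.61) in morula pair 3 and 1.21 (against 0.53) in blastocyst pair 2. In the remaining pairs it was 0.53 to 0.67, against 0.37 to 0.44. In blastocyst pair 3, with a median of 0.07, 9 genes were more than 2-fold higher in blastomere 2 and 1 in blastomere 1, against 8.95% and 9.86% of all tested genes.

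**Figure D5:**
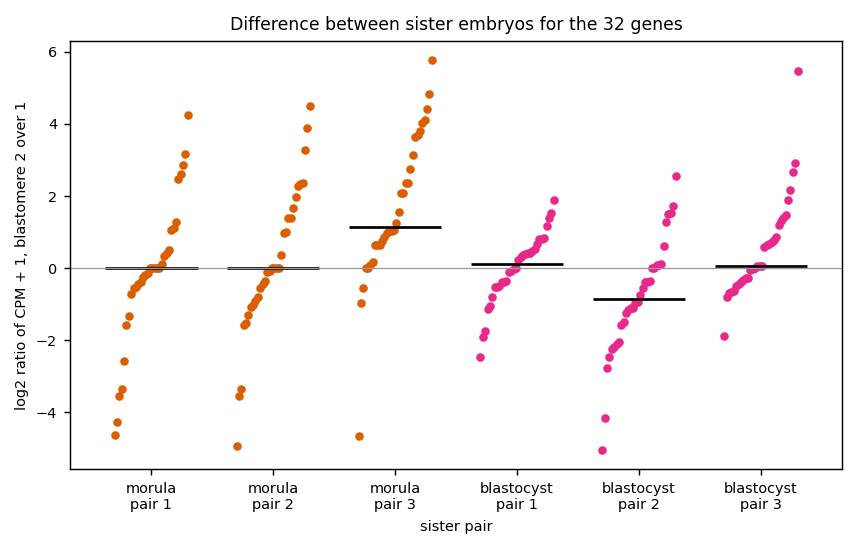
Log2 ratio of CPM + 1 between the sister embryos of each split pair, blastomere 2 over blastomere 1, with 1 point per gene for the 32 genes and the median as a line. The median is 1.14 in morula pair 3 and -0.85 in blastocyst pair 2, and the genes of every pair spread to both sides of 0.

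Between the stages of split embryos, Ei24 alone was called, at 13.1, 18.7 and 14.1 CPM in split blastocyst pairs against 56.7, 46.0 and 106 CPM in split morula pairs. It fell by 2.18 ± 0.44 on the log2 scale (adjusted p = 0.00518), and without blastomere 2 of morula pair 3 by 2.01 (adjusted p = 0.00827). Without the whole of pair 3 it fell by 1.75 (adjusted p = 0.0389). This was 3.23% of the tested members, against 4.17% of all tested genes (1.22% higher and 2.95% lower). In intact embryos the same step gave Ei24 29.1, 17.7 and 22.1 CPM in control blastocysts against 11.2 to 44.5 CPM in control morulae. The difference between the split effects at the blastocyst and the morula was tested as an interaction. No member was called, against 1.64% of all tested genes (1.37% higher and 0.265% lower). In edgeR, 2 members had an unadjusted p under 0.05, while 14.3% of all tested genes passed that limit. Ei24 had log2 -2.03 ± 0.57 (adjusted p = 0.0741). Without blastomere 2 of morula pair 3 it had log2 -1.86 (adjusted p = 0.105), and without that pair -1.59 (adjusted p = 0.228), with again no member called.

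Of the other genes of the pathway, the ribosomal protein gene Rpl5 was the only one called in split morulae. Its product binds Mdm2 and restrains it when ribosome assembly is disturbed. Rpl5 was at 1901, 1646 and 1436 CPM in split morula pairs, against 2725 to 4029 CPM in control morulae (log2 -0.94 ± 0.17, adjusted p = 0.0246), without overlap. The share of all tested genes without overlap was not counted here either. The call held without blastomere 2 of pair 3 (adjusted p = 0.0247). It was lost without split pair 2 or 3 (adjusted p = 0.076 or 0.13) or control morula 2 or 3 (0.0783 or 0.0693) and with the compared groups alone (0.0832), and it held in 13 of 18 alternatives. Processed copies of this gene could share its reads. Of 28 tested regulators it was the only one lower and none was higher, and of 29 other targets none was called in either direction.

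In split blastocysts, 2 of the 29 other targets were higher and 1 of the 28 regulators was lower than in control blastocysts, against 3.42% higher and 1.32% lower of all tested genes. Tigar, a regulator of glycolysis and oxidative stress, was at 353, 428 and 368 CPM in split pairs against 160, 152 and 135 CPM in control blastocysts (log2 1.36 ± 0.21, adjusted p = 0.000354). Bax, the pore-forming effector of apoptosis, was at 188, 196 and 237 CPM against 108, 77.9 and 135 CPM (log2 0.95 ± 0.27, adjusted p = 0.0473). The ubiquitin ligase gene Cop1, whose product marks p53 for degradation, was lower at 15.3, 14.3 and 15.7 CPM against 23.5, 44.7 and 35.8 CPM (log2 -1.20 ± 0.34, adjusted p = 0.0441). None of the 3 genes overlapped between the groups, and the share of all tested genes without overlap was not counted. The call of Tigar held in all 15 alternatives, that of Bax in 4 and that of Cop1 in 5. Bax was lost without control blastocyst 1 or 2 (adjusted p = 0.162 or 0.255) and without split pair 1, 2 or 3 (0.0947, 0.0976 or 0.213). Cop1 was lost without control blastocyst 2 or 3 (adjusted p = 0.24 or 0.119) and without split pair 1, 2 or 3 (0.153, 0.158 or 0.141). Between control morulae and 8-cell embryos, 3 of the 28 regulators were higher and 10 lower, and 7 of the 29 other targets were higher and 3 lower, where 14.3% of all tested genes were higher and 10.7% lower. Between control blastocysts and control morulae, 1 regulator was higher and 4 lower, and 2 other targets were lower, against 3.12% higher and 7.46% lower of all tested genes.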

How the data were processed

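RNA of 24 single embryos was measured. Per the submitters' processing notes, the authors used FastQC, MultiQC, cutadapt, HISAT2, featureCounts and edgeR with the build GRCm39, without versions. The annotation release, the strand setting and the treatment of reads with several matches are not given in the sources used here. The deposited count table holds raw read counts of 37229 symbols, of which 13375 had no count in any embryo. The deposited TPM table holds TPM values of 15625 genes, computed by the authors.

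Counts of the sisters of a pair were added to 1 unit, and with the control embryos there were 18 units. After filterByExpr (15875 genes) and TMM scaling, genes were tested with edgeR's robust quasi-likelihood F test, two-sided, in 1 fit with 13 residual degrees of freedom and 6 comparisons. Adjusted p-values (Benjamini-Hochberg, over all tested genes) come from edgeR where no tool is named, and ± after a log2 change is its standard error. The labels name separate embryos but no separate parents, so a p-value covers no more than the spread among them. Reads are not independent molecules without molecular identifiers, and intervals and floors therefore reflect counting error alone. No columns were copies of each other. The tools were edgeR 4.0.16, DESeq2 1.42.0 and limma 3.58.1 in R 4.3.3, and the fit was tested on simulated data.

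The members and lists were chosen with earlier results of these data known. Values per unit are given for called members and, between split and control embryos, for uncalled members with an absolute log2 change of at least 1 and a mean of at least 10 CPM. Other genes are described by their place in an embryo or in a list, and that choice was made after the values were seen. The alternatives were other scalings, no filter, DESeq2, limma on log2(TPM + 1), limma-voom, split embryos taken singly, the compared groups alone, the replicate number as a block and leaving out each unit. Leaving out blastomere 2 of split morula pair 3 was added after the values were seen. Wherever groups are said not to overlap, the share of all tested genes without overlap was not counted, so these statements have no background.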

Additional observations from a re-analysis of the deposited data

Results flagged for a closer look

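In each group of 4 or more embryos, a member's highest or lowest value was set against the gap to its neighbour (Dixon's criterion). The usual chance rate of this criterion, about 1 in 20, holds for normally distributed values. Fas, Bbc3 and Gdf15 had a count in only 1 split morula, so that rate cannot be assumed here. The share of marked groups among all tested genes was not counted, so the share of the members has no background. Among the members, 27 of 123 groups (22%) were marked, and 13 of the 27 values belonged to blastomere 2 of split morula pair 3. In that embryo they were 229 CPM for Trp53, 247 CPM for Mdm2, 539 CPM for Cdkn1a, 237 CPM for Aen, 4.18 CPM for Bbc3, 12 CPM for Fas and 643 CPM for Ccng1. Further values there were 89 CPM for Phlda3, 283 CPM for Btg2, 1.05 CPM for Gdf15, 65.5 CPM for Polk, 389 CPM for Plk2 and 21.6 CPM for Pidd1. Its sister, blastomere 1, stood out with 76.3 CPM for Mdm4 and 24.5 CPM for Gadd45g.

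In split morula pair 2, blastomere 2 had 4.71 CPM of Gadd45a. Among split blastocysts, blastomere 2 of pair 3 had 64 CPM of Pmaip1, blastomere 2 of pair 2 had 27 CPM of Sesn1 and 15.1 CPM of Ppm1d, and blastomere 1 of pair 2 had 16.9 CPM of Plk2. Among control morulae, embryo 1 had 2.16 CPM of Bbc3, and embryo 4 had 6.32 CPM of Xpc and 4.56 CPM of Plk2. In 8-cell embryos, embryo 2 had 1.12 CPM of Gdf15 and 9.36 CPM of Plk2, embryo 3 had 3.83 CPM of Gadd45g and embryo 1 had 0.0604 CPM of Fdxr. Most of the values in control embryos are of genes at or near 0 in the rest of their group.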

How the results depend on the processing

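Over 21 pairs of a named gene and a comparison and 365 alternatives, 333 kept direction and call, 23 lost the call, 6 gained it and 3 reversed. The reversals were Btg2 between split and control morulae (log2 -0.33 under limma-voom and -0.32 without split morula pair 3) and Ccng1 in the same comparison (-0.05 without that pair). With single units left out, Btg2 ran from -0.32 to 2.97 and Ccng1 from -0.05 to 2.07. limma-voom also moved the median of all tested genes there by -0.36, and the cause was not tested. Trp53, Mdm4 and Ei24 kept their calls between control morulae and 8-cell embryos in all 18 alternatives. Counts of called members moved as follows, each with the share of all tested genes called under the same settings. Between split and control morulae, 0 became 1 under DESeq2, under limma-voom and with split embryos taken singly, and it was 0 to 0 when each unit was left out. The share of all tested genes went from 0.126% to 5.44, 1.01 and 1.22%, and to 0.0252 to 0.297% with units left out. Between split and control blastocysts, 0 became 1 under DESeq2 and 2 with the compared groups alone (Cdkn1a and Trp53), and 0 to 1 when each unit was left out. The share of all tested genes went from 4.74% to 9.92 and 15.7%, and to 2.37 to 3.22% with units left out. Between control morulae and 8-cell embryos, 7 became 4 without the filter, where more genes are tested, 9 under DESeq2, 8 under limma on TPM, 5 with split embryos taken singly and 6 with the compared groups alone, and 5 to 8 when each unit was left out. The share of all tested genes went from 24.9% to 14.9, 33.4, 28.2, 19.6 and 27.4%, and to 20.9 to 23.3% with units left out. Between control blastocysts and morulae, 1 became 2 without TMM, 3 under DESeq2, 5 under limma on TPM and 0 under limma-voom, and 0 to 2 when each unit was left out. The share of all tested genes went from 10.6% to 11.9, 18.4, 23.2 and 8.25%, and to 6.28 to 9.65% with units left out. Between split blastocysts and morulae, 1 became 3 under DESeq2 and under limma on TPM, 6 under limma-voom and 4 with split embryos taken singly, and 1 to 2 when each unit was left out. The share of all tested genes went from 4.17% to 12.2, 9.35, 18.5 and 14.1%, and to 1.71 to 3.68% with units left out. For the interaction, 0 became 1 without TMM, under DESeq2 and with split embryos taken singly, and 0 to 1 when each unit was left out. The share of all tested genes went from 1.64% to 1.24, 6.37 and 2.49%, and to 0.626 to 1.42% with units left out. With the replicate number as a block the counts were 0, 0, 6, 1 and 1 in the same order of comparisons and 0 for the interaction, and the lost call was Gadd45a (adjusted p = 0.0601), while Bax and Cop1 in blastocysts were at 0.0739 and 0.0807. Of all tested genes, that block had 0.126, 4.28, 20.5, 8.33 and 3.77% called in this order and 1.06% for the interaction. Deviations from the group means correlated between same-numbered samples with r between -0.033 and 0.085. Samples with different numbers were not compared in this way. These values therefore cannot show whether same-numbered samples shared a batch or litter, which the labels do not give. Without TMM, the median log2 change of all genes between control blastocysts and morulae was 0.53. Levels under about 1 CPM rest on few counts, and 3 to 5 units a group limit what could be called.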
